A study of Mus musculus with 2 samples.

Results

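The 8 genes described here encode enzymes of serine synthesis, enzymes of mitochondrial folate metabolism, and stress genes that respond to amino acid shortage. They were taken from the expression table of mouse primary chondrocytes by their symbols, *Asns*, *Phgdh*, *Psat1*, *Psph*, *Shmt2*, *Mthfd2*, *Chac1* and *Trib3*. Each symbol matched 1 of the 22156 rows, and all 8 genes were among the 12431 rows whose reads summed to 10 or more, which were the rows tested. All 8 genes had whole-number counts.

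The labels give rib cartilage as the source of both cultures, and the study's methods describe isolation from rib and articular cartilage of newborn mice. The cells were grown without treatment as a monolayer in medium with serum. The study sequenced 1 control library, labelled WT, and 1 *Myl3*-KO library. *Myl3* encodes myosin light chain 3, and it was deleted by Cre recombinase under the *Col2a1* promoter, which is active in cartilage cells. The study's methods name the controls as littermates with the floxed *Myl3* allele, and no source used here says how many animals gave the cells of a library. With 1 library per genotype there is no replicate check. Every interval and p-value below compares the reads of these libraries and does not compare the genotypes. All cover counting error only, except the p-values of edgeR's exact test, which add an assumed spread.

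Cells make serine from 3-phosphoglycerate, an intermediate of glycolysis, through PHGDH, then PSAT1, then PSPH. In mitochondria, SHMT2 splits serine into glycine and a one-carbon unit carried by folate, and MTHFD2 oxidises that unit for use in nucleotide synthesis. When amino acids run short or proteins misfold, phosphorylation of the translation factor eIF2alpha slows general translation and favours translation of the transcription factor ATF4. ATF4 binds DNA with C/EBP partners and drives genes of amino acid supply and stress, among them *Asns* (asparagine synthetase), *Chac1* (an enzyme that degrades glutathione) and *Trib3* (a pseudokinase that restrains ATF4 and AKT signaling). The serine and mitochondrial folate enzymes are known ATF4 targets too, and chondrocytes use glycine in quantity for collagen.

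The DNA letters that C/EBP and ATF factors share as a binding core were looked for in the promoters, defined as 250 bases before to 50 bases after each transcription start in RefSeq (GRCm38.p6). The letters searched were TGATGNAA on both strands, and 3 of the 8 genes held them. The windows of 30 bases around these matches are shown because the matches fell in *Asns*, *Chac1* and *Trib3* and in none of the serine and folate enzymes. Capitals mark the match, and each window is written 5′ to 3′ on the strand that holds it.
Asns: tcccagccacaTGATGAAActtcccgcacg
Chac1: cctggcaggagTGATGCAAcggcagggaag
Trib3: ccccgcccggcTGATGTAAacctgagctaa

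The *Asns* window lay at chr6:7693214-7693243 on the minus strand, with the match starting 23 bases before the transcription start. The *Chac1* window lay at chr2:119351038-119351067 on the minus strand, 193 bases before the start. The *Trib3* window lay at chr2:152344028-152344057 on the plus strand, 15 bases after the start. These distances are from the RefSeq starts, and the GENCODE gene bounds given below differ. By the GENCODE bounds the *Trib3* match lies upstream of the gene and the *Asns* match inside it. The promoters of *Phgdh*, *Psat1*, *Psph*, *Shmt2* and *Mthfd2* did not hold these letters, which describes this window alone. Of all 32851 promoters, 3.97% held a match, and of the 27025 genes with a promoter, some with several, 4.51% held at least 1. Of 17 other genes in a list of ATF4 and stress genes with a promoter, 6 held one, namely *Atf3*, *Fgf21*, *Jdp2*, *Nupr1*, *Pck2* and *Vldlr*. A match is a description of sequence and not evidence of binding.

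The control library held 17612434.91 reads and the *Myl3*-KO library 13477976.98, so a count of 3, taken as the floor, equals 0.17 and 0.223 CPM, the counts per 1000000 reads of a library. *Myl3* itself had 0 counts in both libraries, so its count could not check the labels. *Col2a1*, the collagen that defines cartilage, had 30 and 27 counts, and 5 of the 11 chondrocyte markers found in the table were at 0 in both libraries. *Sox9*, the chondrocyte transcription factor, had 866 and 480 counts, a log2 ratio of -0.47 (-0.63 to -0.30, adjusted exact binomial p = 1.27e-07). The 8 fibroblast markers summed to 15461 CPM in the control against 17531 CPM in *Myl3*-KO, of which *Col1a2* alone gave 12017 and 14039 CPM. The label of primary chondrocyte therefore rested on few detected cartilage markers in both libraries.

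On the FPKM scale, which divides reads by gene length so that genes can be ranked by level, *Psat1* stood first in both libraries and *Trib3* last. The order in the control library was *Psat1*, *Shmt2*, *Phgdh*, *Asns*, *Mthfd2*, *Psph*, *Chac1* and *Trib3*, and the order in *Myl3*-KO was the same. The highest FPKM was 41.5 times the lowest in the control and 54.2 times in *Myl3*-KO. In the control, the counting intervals of *Shmt2* and *Phgdh* overlapped, at 98.67 to 104.93 FPKM and 95.73 to 102.82 FPKM. In *Myl3*-KO, those of *Psat1* and *Shmt2* overlapped, at 82.06 to 88.23 FPKM and 81.29 to 87.82 FPKM. All other neighbours in the order were separated by more than counting error. The enzymes and *Asns* thus stood well above *Chac1* and *Trib3* in level in both libraries.

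**Figure D1:**
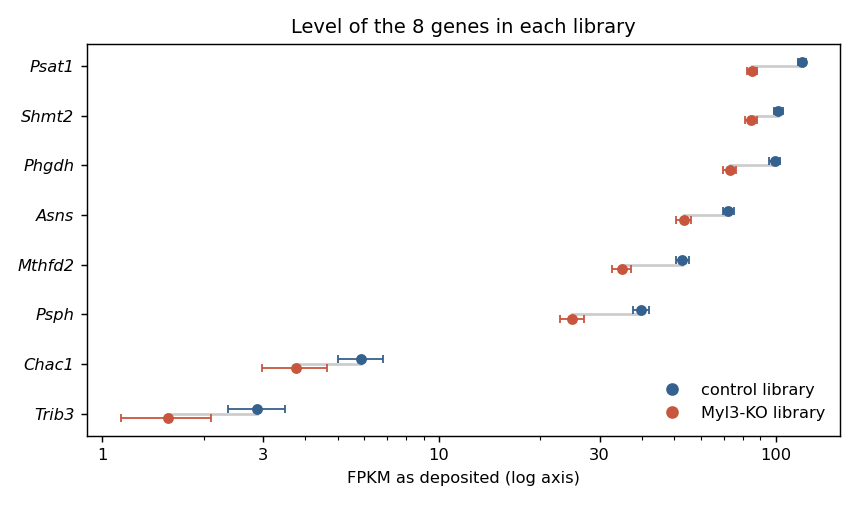
Level of the 8 genes in each library. The horizontal axis is the deposited FPKM on a log scale, blue points are the control library and red points the Myl3-KO library, and bars are 95% counting intervals. Every red point lies left of its blue point, from 119.91 and 85.10 FPKM for Psat1 to 2.89 and 1.57 FPKM for Trib3.

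All 8 genes had lower CPM in *Myl3*-KO than in the control. The log2 ratios of CPM, *Myl3*-KO over control, ran from -0.87 to -0.27 with a median of -0.55, whereas the median of all genes tested was 0.02. No member reached a log2 ratio of 1 in size. Together the 8 genes held 18543 counts in the control against 10434 in *Myl3*-KO, which is 1053 and 774 CPM, a ratio of 0.735. In a bulk library, fewer cells of a type and less RNA per cell cannot be told apart.

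PHGDH, the dehydrogenase that commits 3-phosphoglycerate to serine, was encoded by 3041 reads in the control against 1770 in *Myl3*-KO, or 99.23 and 72.89 FPKM. The log2 ratio of CPM was -0.39 (95% interval -0.48 to -0.31), a level 23.9% lower (adjusted exact binomial p = 1.1e-18). *Phgdh* lies on chromosome 3 from 98313170 to 98339990, minus strand (GRCm38, GENCODE M21), and its value is uncertain. Of the 2453 words of 31 bases in its transcripts, 1370 (55.8%) also occur in transcripts of 23 other annotated genes, among them the pseudogene *Phgdh-ps1*, and 0 of these 23 were rows of the table.

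PSAT1, the aminotransferase of the second step, was the most abundant of the 8 transcripts. *Psat1* (chromosome 19, 15904678 to 15947337, minus strand) had 5472 reads in the control against 2953 in *Myl3*-KO, or 119.91 and 85.10 FPKM. Its log2 ratio was -0.50 (-0.57 to -0.44), 29.5% lower (adjusted exact binomial p = 5.41e-52), with the narrowest interval of the 8 genes. Its transcripts shared 2.18% of their words with 1 other gene, *Gm12611*.

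PSPH, the phosphatase that releases serine, was the lowest in level of the serine synthesis enzymes and had the largest difference of the 3. *Psph* (chromosome 5, 129765558 to 129787449, minus strand) had 1182 reads in the control against 565 in *Myl3*-KO, or 39.80 and 24.85 FPKM. The log2 ratio was -0.68 (-0.83 to -0.53), 37.5% lower (adjusted exact binomial p = 2.4e-19). *Cct6a*, which overlaps *Psph* on the other strand, was not analysed here, and 0.291% of the words of *Psph* transcripts occur in other genes.

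SHMT2, which feeds serine carbon into mitochondrial folate, differed least on the CPM scale. With GC and length effects subtracted, *Asns* at -0.31 differed less than *Shmt2* at -0.36. *Shmt2* (chromosome 10, 127517123 to 127522444, minus strand) had 4090 reads in the control against 2601 in *Myl3*-KO, or 101.76 and 84.51 FPKM. The log2 ratio was -0.27 (-0.34 to -0.20), 16.9% lower (adjusted exact binomial p = 2.9e-12). *Ndufa4l2*, which overlaps *Shmt2* on the other strand, had 0 counts in both libraries.

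MTHFD2, the next enzyme after SHMT2, differed more than SHMT2 did. *Mthfd2* (chromosome 6, 83305691 to 83325908, minus strand) had 1939 reads in the control against 980 in *Myl3*-KO, or 52.80 and 34.87 FPKM. The log2 ratio was -0.60 (-0.71 to -0.49), 34% lower (adjusted exact binomial p = 3e-25). Its transcripts shared 0 words with other genes, and *Gm43890*, which overlaps it on the same strand, was not analysed here.

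ASNS makes asparagine from aspartate and glutamine. *Asns*, whose promoter window is printed above, lies on chromosome 6 from 7675169 to 7693254 on the minus strand. It had 2547 reads in the control against 1439 in *Myl3*-KO, or 72.27 and 53.36 FPKM. Its log2 ratio was -0.44 (-0.53 to -0.34), 26.2% lower (adjusted exact binomial p = 6.09e-19), and it shared 0 words with other genes.

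The stress genes *Chac1* and *Trib3*, the others with the C/EBP and ATF letters in their promoters, were the least abundant of the 8 and had the widest intervals. *Chac1* (chromosome 2, 119351229 to 119354381, plus strand) had 169 reads in the control against 83 in *Myl3*-KO, or 5.86 and 3.76 FPKM. Its log2 ratio was -0.64 (-1.04 to -0.25), 35.8% lower (adjusted exact binomial p = 0.0041). *Trib3* (chromosome 2, 152337422 to 152344032, minus strand) had 103 reads in the control against 43 in *Myl3*-KO, or 2.89 and 1.57 FPKM. Its log2 ratio of -0.87 (-1.42 to -0.35), 45.4% lower (adjusted exact binomial p = 0.00357), was the largest in size of the 8, and its interval overlapped that of each of the others except *Shmt2*.

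**Figure D2:**
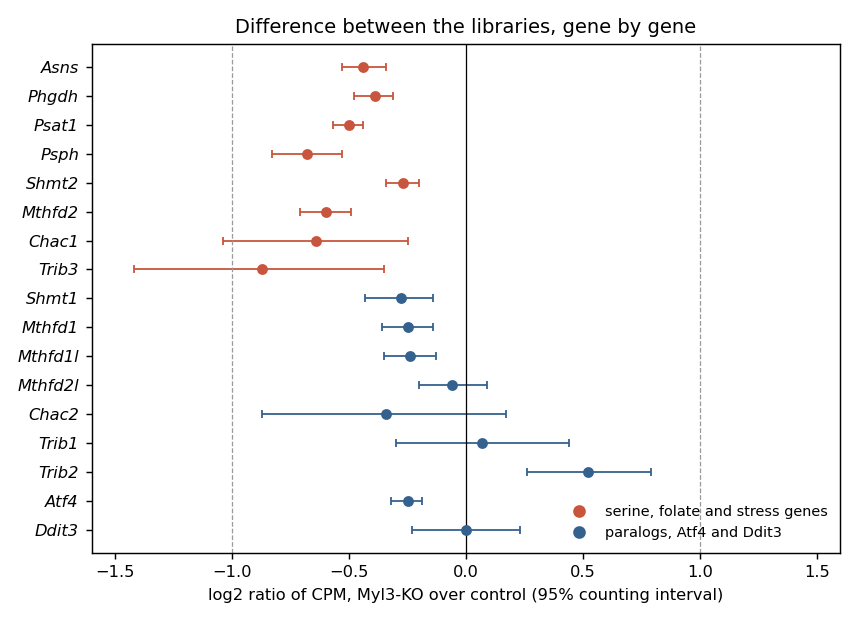
Log2 ratio of CPM, Myl3-KO over control, for the 8 genes (red) and for their paralogs, Atf4 and Ddit3 (blue). Bars are 95% counting intervals and dashed lines mark log2 ratios of -1 and 1. All 8 red intervals lie below 0, from Shmt2 at -0.27 to Trib3 at -0.87, while Trib2 lies above 0 at 0.52.

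Against all genes tested, 0 of 8 members were lower by a log2 ratio of 1 or more, where 1.19% of all genes were, and 0 of 8 were higher by as much, where 2.16% were. At a limit of 0.5, 5 of the 8 were lower (*Trib3*, *Psph*, *Chac1*, *Mthfd2* and *Psat1*), where 3.75% of all genes were. *Psat1*, at -0.50, stood at that limit on the inside, and *Asns*, at -0.44, was the nearest outside it. Beyond counting error, by the exact binomial test with Benjamini-Hochberg adjustment over all 12431 genes, 8 of 8 were lower and 0 of 8 were higher. Of all genes, 16.8% were lower and 18.6% higher. The members were chosen with earlier results of these data known, so these shares describe them and test nothing.

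Read depth bears on these shares, because a deeply read gene passes the counting test at a small difference. Among the 6385 genes whose summed count reached 1000, a restriction chosen after seeing the data, 27.3% were lower beyond counting error. All 6 members in that set, the enzymes and *Asns*, were among them. In the same set 0.72% were lower by a log2 ratio of 0.5 or more, and 3 of the 6 members were. The share of all tested genes with a log2 ratio as low or lower was 1.51% for *Trib3*, 2.23% for *Psph*, 2.41% for *Chac1* and 2.85% for *Mthfd2*. It was 3.67% for *Psat1*, 4.9% for *Asns*, 6.11% for *Phgdh* and 12.8% for *Shmt2*. On the CPM scale, *Shmt2* thus lay nearest to the bulk of the genes.

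**Figure D3:**
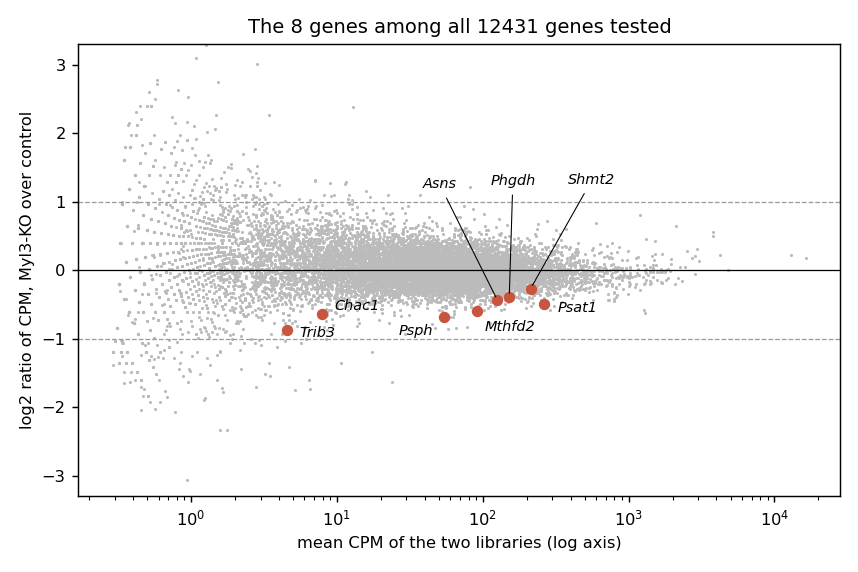
Each grey point is 1 of the 12431 genes tested, with its mean CPM over both libraries on a log axis and its log2 ratio of CPM, Myl3-KO over control, on the vertical axis. Red points are the 8 genes, dashed lines mark log2 ratios of -1 and 1, and 1 gene lies beyond the vertical axis. The 8 genes lie between the lines and below 0, with Trib3 and Chac1 at low CPM, where the grey points spread most.

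The spread between animals or cultures is unknown here. When it was set by assumption to a coefficient of variation of 0.1 in edgeR's exact test, 0 of 8 members were lower after Benjamini-Hochberg adjustment over all genes, where 0.161% of all genes were. By the unadjusted p of that test, 6 of the 8 were under 0.05, and the lowest was that of *Psph* (p = 0.00187, edgeR exact test). At an assumed coefficient of variation of 0.2, 0 of 8 were under 0.05 unadjusted.

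The ratio between a pair of genes needs no scaling of the libraries, so it shows whether the reads of the 8 genes differed by the same factor. Effects of GC content and length on single genes do not cancel in such a ratio. Of the 28 pairs of members, 7 changed their ratio beyond counting error (two-sided Fisher's exact test, Benjamini-Hochberg over the 28) and 21 did not pass. Of these 7 pairs, 4 held *Shmt2*, which stood high relative to *Psph*, *Mthfd2*, *Psat1* and *Asns* in *Myl3*-KO. *Psph* was in 3 of the 7, and *Chac1* and *Trib3*, with few reads, in 0. When the median of genes of similar GC content and length was subtracted, *Shmt2* was at -0.36 and *Asns* at -0.31, the reverse order. *Psat1* at -0.48, *Mthfd2* at -0.58 and *Psph* at -0.66 stayed below *Shmt2*. The pairs were not tested on these values.

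Along the route from glycolysis to the folate pool, the difference was unequal from step to step. The ratio of *Psph* to *Shmt2* reads was 0.289 in the control against 0.217 in *Myl3*-KO, a log2 difference of -0.41 (95% interval -0.58 to -0.25, adjusted Fisher's exact p = 1.01e-05). The ratio of *Shmt2* to *Mthfd2* reads, consecutive enzymes in mitochondria, was 2.11 and 2.65, a log2 difference of 0.33 (0.20 to 0.46, adjusted Fisher's exact p = 1.01e-05). *Phgdh* to *Psph*, the first and last steps of serine synthesis, moved by 0.28 (0.11 to 0.45, adjusted Fisher's exact p = 0.00617). The *Phgdh* value is uncertain because of its shared words, and its log2 ratio was -0.45 on FPKM against -0.39 on CPM. *Phgdh* to *Psat1* did not pass, and neither did *Psat1* to *Psph*. *Mthfd2* to *Psph*, the pair with the largest differences among the enzymes, did not pass either.

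**Figure D4:**
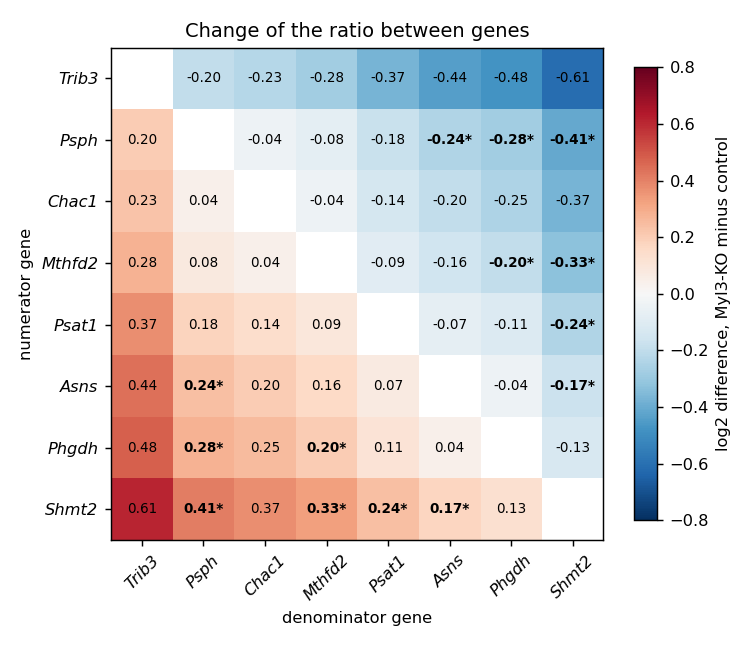
Change of the ratio between each pair of the 8 genes, as the log2 ratio of their reads in Myl3-KO minus that in the control, with the numerator gene in rows and the denominator gene in columns. Blue is lower and red higher in Myl3-KO, and bold values with an asterisk passed the adjusted Fisher's exact test. The Shmt2 row is above 0 throughout and holds 4 of the 7 pairs that passed.

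Paralogs, which are genes of the same family, gave a second set of ratios. *Shmt1*, the cytosolic counterpart of *Shmt2*, had 1038 and 652 reads and a log2 ratio of -0.28. The *Shmt2* to *Shmt1* ratio differed between the libraries by 0.02 on the log2 scale (-0.14 to 0.18, adjusted Fisher's exact p = 0.89), an interval that covers 0. *Mthfd2l*, a second mitochondrial enzyme of the same reaction as *Mthfd2*, had 954 and 702 reads and a log2 ratio of -0.06. The *Mthfd2* to *Mthfd2l* ratio went from 2.03 to 1.4, a log2 difference of -0.54 (-0.72 to -0.36, adjusted Fisher's exact p = 2.43e-08).

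*Mthfd2* was also lower relative to *Mthfd1*, the cytosolic enzyme, with ratios of 1.15 and 0.907 and a log2 difference of -0.35 (-0.51 to -0.19, adjusted Fisher's exact p = 3.38e-05). *Mthfd1l*, which releases formate from mitochondria, and *Mthfd1* had log2 ratios of -0.24 and -0.25, and their ratio did not pass (0.01, -0.15 to 0.17). Relative to each of the related dehydrogenases it was set against, *Mthfd2* was thus lower in *Myl3*-KO than in the control.

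Among the pseudokinases, *Trib3* was lower and both paralogs had log2 ratios above 0. *Trib1* had 143 and 115 reads and a log2 ratio of 0.07, and *Trib2* had 231 and 254 reads and a log2 ratio of 0.52 (0.26 to 0.79). The *Trib3* to *Trib1* ratio differed by -0.95 (-1.61 to -0.29, adjusted Fisher's exact p = 0.0052). The *Trib3* to *Trib2* ratio, 0.446 in the control against 0.169 in *Myl3*-KO, differed by -1.40 (-2.01 to -0.80, adjusted Fisher's exact p = 4.12e-06). *Chac2*, which degrades glutathione as *Chac1* does, had 86 and 52 reads, and the ratio of *Chac1* to *Chac2* differed by -0.30 with an interval from -0.96 to 0.36 that does not tell them apart at this depth. In all, 4 of the 7 paralog pairs passed.

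*Atf4*, the transcription factor of the response, had 4495 reads in the control against 2883 in *Myl3*-KO, 148.04 and 124.07 FPKM, and a log2 ratio of -0.25 (-0.32 to -0.19). ATF4 is regulated mainly through translation, so its transcript is not a measure of the protein. Relative to *Atf4* reads, 6 of 8 members were lower, and relative to *Ddit3*, which encodes the stress factor CHOP, 8 of 8 were (adjusted Fisher's exact test over these 16 pairs, chosen after seeing the data). The exceptions against *Atf4* were *Shmt2*, with a log2 difference of -0.01 (-0.11 to 0.09), and *Chac1*, with -0.39 (-0.79 to 0.01). *Ddit3* itself had 366 and 280 reads, 20.8 CPM in each library and a log2 ratio of 0.00 (-0.23 to 0.23). The log2 differences against *Ddit3* therefore repeat the members' own log2 ratios and are not a second comparison.

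The other genes of the same pathways stood nearer to the median of all genes. The counts that follow leave out the 8 genes and give genes lower or higher beyond counting error, for which the shares over all genes were 16.8% and 18.6%. Of 11 other tested genes of serine and glycine metabolism, 3 were lower and 1 was higher, with a median log2 ratio of -0.09. The lower ones were *Gcsh* and *Dld* of the glycine cleavage system, at -0.33 and -0.13, and *Shmt1*. Of the same system, *Amt* was at 0.30 (adjusted exact binomial p = 0.193), and *Gldc*, with 2 counts in each library, was not tested. The higher one was *Sfxn3*, a mitochondrial serine transporter, with 2004 and 2431 reads and a log2 ratio of 0.66. *Gcsh*, *Dld*, *Amt*, *Gldc* and the *Sfxn* genes are named after their values were seen. *Sfxn1*, the other mitochondrial serine transporter of the list, had 3841 and 2849 reads and a log2 ratio of -0.05 (adjusted exact binomial p = 0.353).

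Of 19 other tested folate enzymes, 7 were lower and 1 was higher, with a median of -0.16. The only one past a log2 ratio of 1 was *Aldh1l1*, the cytosolic formyl folate dehydrogenase, at 1.08 on 13 and 21 reads (adjusted exact binomial p = 0.092). Among those named after their values were seen, *Tyms*, which makes thymidylate, was at -0.53 on CPM, though its FPKM of 51.86 and 43.21 gave a log2 ratio of -0.26. *Aldh1l2*, the mitochondrial relative of *Aldh1l1*, was at -0.44.

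Of 17 other tested ATF4 and stress genes, 5 were lower and 1 was higher, with a median of -0.06. *Stc2*, a secreted glycoprotein induced by ATF4, had the largest difference, with 98 and 39 reads and a log2 ratio of -0.94 (-1.52 to -0.39). The other lower genes, named after their values were seen, were *Eif4ebp1* at -0.42, *Atf5* at -0.38, *Myc* at -0.31 and *Atf4*. The higher one was *Nupr1*, a stress cofactor, at 0.26, and *Fgf21* and *Gdf15* are not among the genes tested. The 17 other stress genes stood on both sides of 0, with 11 below it and 6 above. With *Asns*, *Chac1* and *Trib3* counted in, 8 of the 20 tested genes of the list were lower and 1 was higher. In the eIF2alpha kinase branch, 8 of 17 were lower and 1 was higher (median -0.13), with *Eif2s1*, the alpha subunit of eIF2, at -0.37. Named after their values were seen, the higher gene was *Gcn1l1* at 0.26, and the kinases themselves lay above 0. *Eif2ak1* was at 0.04, *Eif2ak2* at 0.17, *Eif2ak3* at 0.14 and *Eif2ak4* at 0.15, none beyond counting error.

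Of 20 cytosolic tRNA synthetases, which charge tRNAs with amino acids, 13 were lower and 0 were higher, with a median of -0.16. These genes were deeply read, with lowest counts of 929 and 707. Among all genes whose summed count reached 1000, 27.3% were lower. *Farsb*, a subunit of the phenylalanine enzyme, differed most, at -0.32. Of 17 mitochondrial synthetases, 4 were lower and 2 higher (median -0.03), with *Nars2* at -0.44. Of 11 amino acid transporters, 1 was lower and 2 were higher, with a median of 0.01. The transporter with the largest log2 ratio, *Slc7a3*, had only 12 and 14 reads (0.61, adjusted exact binomial p = 0.488). The lower one, *Slc7a1*, a carrier of arginine and lysine named after its value was seen, was at -0.35.

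Of 13 other genes of asparagine, glutamine, aspartate and proline metabolism, 4 were lower and 1 higher (median -0.13). *Prodh*, which breaks down proline, had the largest log2 ratio there, -0.81, on 16 and 7 reads (adjusted exact binomial p = 0.452). *Glul*, which makes the glutamine that ASNS uses, was the higher one, at 0.32, and is named after its value was seen. Of 6 other glutathione genes, 1 was lower and 0 higher (median -0.14), and of 15 genes of protein folding in the endoplasmic reticulum, 7 were lower and 2 higher (median -0.09), with *Manf* at -0.29. Pathways annotated by KEGG in the deposited table gave medians, without members, of -0.07 for glycine, serine and threonine metabolism (20 genes), -0.08 for the one-carbon pool by folate (16 genes), -0.11 for tRNA charging (44 genes) and -0.08 for biosynthesis of amino acids (50 genes). These medians were nearer to 0.02 than the -0.55 of the 8 genes was. Members and lists were chosen with earlier results of these data known, so this contrast is a description and not a test.

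Other groups of genes moved with the members. Of 16 proliferation genes, 14 were lower and 0 higher, with a median of -0.29 and *Cdk1*, the mitotic kinase, at -0.52. Their lowest counts were 1058 and 703, and 27.3% of all genes whose summed count reached 1000 were lower. Of 17 rows of low-oxygen and glycolysis genes, 15 were lower and 0 higher, with a median of -0.53. In that list *Ankrd37* at -1.73, *Egln3* at -1.07 and a second *Aldoa* row of 15 and 5 reads at -1.20 were past a log2 ratio of -1. Of the 3 chondrocyte markers tested, 1 was lower, *Sox9* at -0.47, and 0 were higher. *Col2a1* and *Col11a1*, the others tested, were at 0.23 and 0.10. The 11 found summed to 57.9 CPM in the control against 45.3 CPM in *Myl3*-KO, of which *Sox9* alone gave 49.2 and 35.6 CPM. Of the 7 fibroblast markers tested, 3 were lower and 3 higher beyond counting error, and *Dcn* at -1.64 and *Lum* at -1.36 were past a log2 ratio of -1. Of 9 muscle markers, *Cdh15* had 73 and 290 reads and 5 were at 0 in both libraries, and the list summed to 4.49 and 21.8 CPM. Immune markers summed to 2.22 and 2.45 CPM, endothelial markers to 0.397 and 0.89 CPM, and erythroid markers to 0 and 0.0742 CPM. The part of any of these in the lower level of the 8 genes was not tested.

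**Figure D5:**
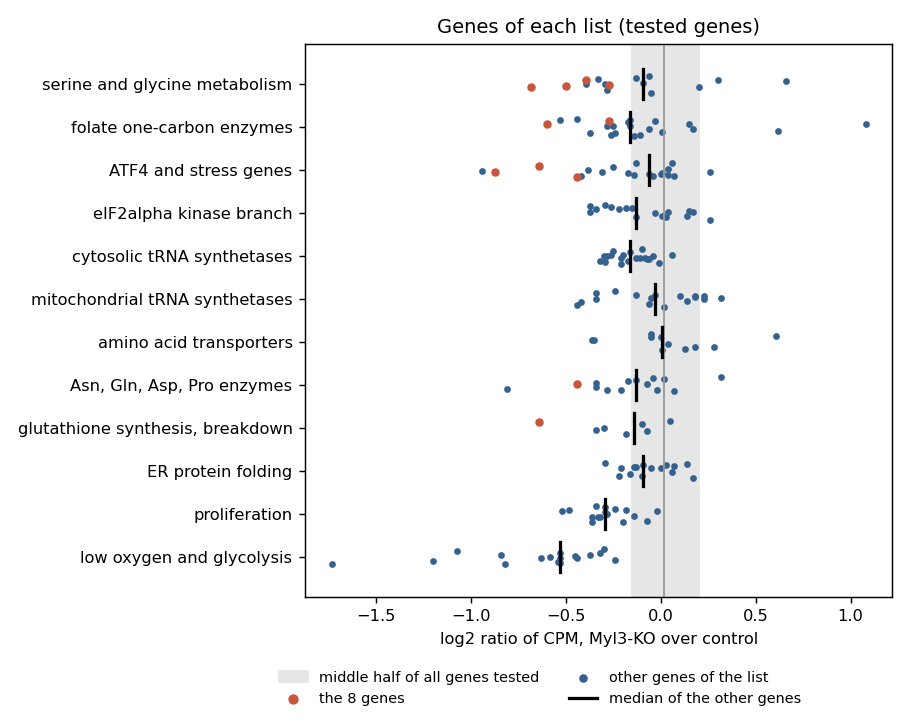
Log2 ratio of CPM, Myl3-KO over control, for every tested gene of 12 lists, with the 8 genes in red, the other genes in blue and a black bar at the median of the other genes. The grey band holds the middle 50% of all genes tested, from -0.15 to 0.20, and the grey line their median. The red points lie left of the band, as do most low-oxygen and proliferation genes, while most other lists have medians inside it.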

How the data were processed

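RNA of 1 control and 1 *Myl3*-KO culture was sequenced. The table deposited by the authors holds expected counts (reads assigned to a gene by estimation, not normalized) and FPKM, which scale them by gene length and library, given to 2 decimals. The labels name a SMARTER kit, the methods oligo beads with random primers, and the submitters' processing notes the builds GRCm38 and mm10. The aligner, the counting tool and the strand setting are not given in the sources used here. The columns are headed NC and KO, and NC was read as the control by elimination. Columns of single samples that match no sample numbered 0.

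CPM were expected counts per 1000000 of the library total, and log2 ratios used counts under 3 raised to 3. Counts were rounded to whole numbers for a two-sided exact binomial test of the share given by the library totals, with Benjamini-Hochberg adjustment over the 12431 genes whose counts summed to 10 or more, and for 95% Clopper-Pearson intervals. FPKM intervals are exact Poisson intervals of the counts. Called means a log2 ratio of at least 1 in size, and beyond counting error means an adjusted p under 0.05. Ratios between genes were tested by Fisher's exact test. The test was checked on simulated data. With 1 library per group, the quasi-likelihood test of edgeR and the test of DESeq2 could not be fitted for want of residual degrees of freedom, but edgeR 4.0.16 gave TMM factors and an exact test at an assumed spread, and DESeq2 1.42.0 gave size factors. Other tools were Python 3.11.15, scipy 1.17.1, pandas 2.3.3, numpy 2.4.6, matplotlib 3.10.9 and R 4.3.3. Positions come from GENCODE M21 and promoters from RefSeq.

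The members, lists and tests were chosen with earlier results of these data known. The text names the 8 genes, their paralogs, *Atf4* and, per list, the called genes (at most 4 in each direction) or, where none was called, the gene with the largest log2 ratio. *Ddit3*, marker genes and others said to be so were named after their values were seen. Alternatives were TMM and DESeq2 scaling, the FPKM ratio, an added count, other limits, no filter, assumed spreads and a subtraction of GC and length effects. Some genes of the folate list are not reported here by name.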

Additional observations from a re-analysis of the deposited data

How the results depend on the processing

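The 8 genes stayed lower in *Myl3*-KO under every alternative run. Of 40 log2 ratios of single members recomputed under other settings, 0 reversed and 38 moved by less than their counting interval, over a range of -0.90 to -0.27, and the median of the members ran from -0.58 to -0.53. The other 2 moved when the median of genes of similar GC content and length was subtracted, a setting chosen after seeing the data. It put *Asns* at -0.31 and *Shmt2* at -0.36, so *Asns* and not *Shmt2* then differed least. TMM and DESeq2 scaling shifted the median of all genes by -0.02 each. Members called lower numbered 5 when the limit was a log2 ratio of 0.5 in place of 1. Members lower beyond counting error numbered 0 in edgeR's exact test with an assumed coefficient of variation of 0.1, 0.2 or 0.4, by the construction of a wider assumed spread. The unadjusted p was under 0.05 for 6, 0 and 0 of the 8 members at these values, and the exact binomial test called 8. The FPKM ratio gives no test. No paired analysis was possible because there is 1 library per group, and for the same reason no replicate could be left out. Depth limits *Chac1* and *Trib3* most, with 83 and 43 reads in *Myl3*-KO.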
